A study of Mus musculus with 6 samples.

Results

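The nidogens and the proteoglycans and glycoproteins that lie with them in basement membranes and the adjoining matrix were followed through glomeruli whose podocytes lacked Vhl. The set was fixed by name and holds 10 genes (Nid1, Nid2, Agrn, Hspg2, Sparc, Bgn, Dcn, Tinagl1, Fn1 and Vcan) of 18193 named on the array. All 27 probe sets annotated to these symbols, of 45101 in the table, were taken. Glomeruli, the filtering units of the kidney, were isolated with magnetic beads from 6 female mice aged 6 weeks, and RNA of each mouse was hybridised to 1 Affymetrix array. Of these mice, 3 were Pod-Cre fVHL animals, in which a podocin-Cre transgene removes a floxed von Hippel-Lindau gene (Vhl) in podocytes, and 3 were wildtype littermate controls. The litters came from parents that carried Pod-Cre and were homozygous for the floxed gene. The sources used here do not say whether the controls also carried floxed Vhl. The Pod-Cre fVHL mice, called Vhl-deleted below, had been chosen for urinary albumin no higher than the average of their wildtype littermates, and urine was sampled at 4 weeks. Endothelial and mesangial cells are outside the reach of the podocin promoter, and their RNA was on the same arrays.

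Basement membranes are built from a laminin network and a collagen IV network. Nidogens bind both networks, and the heparan sulfate proteoglycans agrin and perlecan (Hspg2) add negative charge and bind cell-surface receptors. Agrin is the main heparan sulfate proteoglycan of the glomerular basement membrane, whereas perlecan and biglycan are better known from the mesangial matrix and vessel walls. VHL targets hypoxia-inducible factors (HIF) to the proteasome, and several enzymes that modify collagens are known targets of these factors.

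Podocyte, endothelial and mesangial genes were well expressed in all 6 arrays: the signal of Nphs1 (nephrin) lay between 4827 and 9142, that of Pecam1 between 3993 and 6221 and that of Pdgfrb between 12361 and 17470. Tubule genes were also present, with Umod between 11354 and 30739. The mean log2 level of 19 tubule markers was 10.83 in wild-type replicate 3 and between 12.19 and 13.01 in the other 5 arrays, with the highest value in Vhl-deleted replicate 3. Vhl had signals of 809, 665 and 707 in the wild-type arrays and 611, 619 and 606 in the Vhl-deleted ones (log2 difference -0.23, SE 0.12, limma adjusted p = 0.944). The sources used here do not say if its probes read the deleted exons. Egln3, a HIF prolyl hydroxylase and HIF target, went from signals of 144, 171 and 149 to 5098, 4792 and 3678 (log2 difference 4.63, SE 0.15, adjusted p = 9.74e-05).

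None of the matrix genes rose or fell past the threshold, but most lay slightly higher in the Vhl-deleted glomeruli. Biglycan (Bgn) was 1.34-fold higher by mean signal on its brightest probe set and nidogen 2 (Nid2) 1.38-fold, while agrin (Agrn) was at 0.975-fold. Versican (Vcan) stayed below the signal filter on all of its probe sets. Changes are log2 differences of signal + 28, Vhl-deleted minus wild-type, with n = 3 arrays per group, and the brightest probe set above the filter (the upper 50% of probe sets by mean) stands for each gene. The threshold was an adjusted p of 0.05, and intervals are not adjusted for the number of genes. Of the 10 genes, 9 could be tested. With limma and Benjamini-Hochberg adjustment over all 11159 genes, 0 of the 9 rose and 0 fell, where 0.0717% of all genes rose and 0.00896% fell. Their adjusted p-values lay between 0.633 and 0.982. At an unadjusted p under 0.05 there were 2 of 9, Bgn and Nid2, beside 4.92% of all genes. The change was above 0 in 8 of 9 genes, beside 50.9% of all genes, and its median was 0.28 against 0.00 over all genes. In 2 of 9 genes, Bgn and Fn1, the 3 Vhl-deleted arrays all lay above the 3 wild-type arrays, which held for 5.04% of all genes, and in 0 of 9 did they all lie below (5.64%). Of the 27 probe sets 0 passed by limma, beside 0.0372% of all probe sets. In whole glomeruli, more cells of a type and more RNA per cell cannot be told apart.

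**Figure D1:**
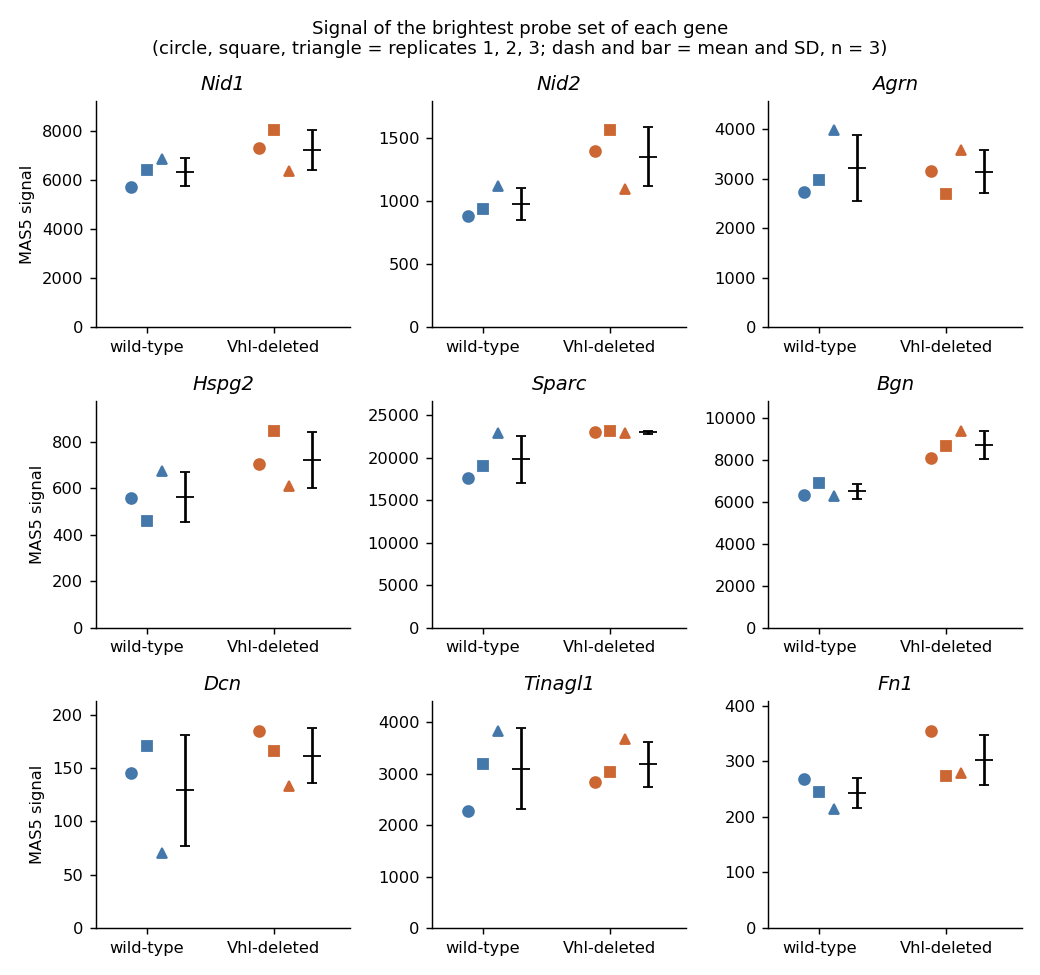
MAS5 signal (vertical axis, from 0, linear) of the brightest probe set of each of the 9 tested genes in 3 wild-type (blue) and 3 Vhl-deleted (orange) arrays; circle, square and triangle are replicates 1, 2 and 3, and the dash with its bar is the mean ± SD. Bgn and Fn1 are the genes whose groups do not overlap; in Nid2, Vhl-deleted replicate 3 (1100) lies below wild-type replicate 3 (1123).

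Nid1 encodes nidogen 1, the glycoprotein that links laminin to collagen IV. Its brightest probe set (1416808_at) gave signals of 5729, 6419 and 6880 in the wild-type arrays and 7312, 8041 and 6389 in Vhl-deleted arrays. Vhl-deleted replicates 1 and 2 stood above all wild-type arrays, but replicate 3 lay within the wild-type range. The log2 change was 0.19 (SE 0.12, 95% interval -0.10 to 0.48, adjusted p = 0.944). The other probe set above the filter (1448469_at), annotated to the same transcript record, had signals of 1317, 1442 and 1458 in the wild-type arrays and 1774, 2048 and 1632 in Vhl-deleted arrays. There the groups did not overlap, and the change was 0.36 (SE 0.12, adjusted p = 0.941 over 34945 probe sets). Both probe sets ranked the 3 Vhl-deleted arrays alike, with replicate 2 highest and replicate 3 lowest. The remaining Nid1 probe set (1441519_at) was below the filter, with signals between 54.0 and 123.8.

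Nid2 encodes nidogen 2, the second member of the family, which also binds laminin and collagen IV. Its probe set (1423516_a_at) had signals of 884, 937 and 1123 in the wild-type arrays and 1399, 1564 and 1100 in Vhl-deleted arrays. Replicates 1 and 2 of the Vhl-deleted group were above every wild-type array, and replicate 3 was between wild-type replicates 2 and 3. The change of 0.45 (SE 0.16, 95% interval 0.06 to 0.83) had an unadjusted p of 0.0279 and an adjusted p of 0.941 by limma. It was 0.68 without wild-type replicate 3 and Vhl-deleted replicate 3 (limma adjusted p = 0.0737). These arrays had the lowest and the highest tubule marker level, and this alternative was chosen after seeing the data. For Nid2 they were also the highest wild-type and the lowest Vhl-deleted array. Leaving them out therefore had to raise its change.

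The log2 ratio of Nid1 to Nid2 within an array was 2.66, 2.74 and 2.58 in the wild-type arrays and 2.36, 2.34 and 2.51 in Vhl-deleted arrays. All 3 Vhl-deleted values were lower, by 0.26 on average, and the two-sided exact permutation test over the 6 arrays gave p = 0.1, the smallest it can give (0.3 adjusted over 3 pairs of genes). With the other Nid1 probe set, an alternative chosen after seeing the data, the difference was -0.09 (exact p = 0.4) and the groups overlapped, so an unequal change of the nidogens was not seen on both probe sets.

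Agrin is the heparan sulfate proteoglycan made by podocytes and endothelium for the glomerular basement membrane. Its probe set 1426670_at had signals of 2724, 2972 and 3976 in the wild-type arrays and 3160, 2696 and 3574 in Vhl-deleted arrays. The groups were intermixed, and the lowest and the highest value stood in a Vhl-deleted and a wild-type array. The change was -0.03 (SE 0.17, adjusted p = 0.982), with a 95% interval from -0.43 to 0.38, so changes within that range could not be resolved; without wild-type replicate 3 it was 0.13. The other Agrn probe set (1443980_at) was dim, with signals between 2.61 and 23.4.

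Hspg2 encodes perlecan, a large heparan sulfate proteoglycan of basement membranes. Probe set 1418670_s_at had signals of 558, 460 and 673 in the wild-type arrays and 706, 849 and 609 in Vhl-deleted arrays. As in the nidogens, Vhl-deleted replicates 1 and 2 were above all wild-type arrays and replicate 3 was not. The change was 0.34 (SE 0.18, 95% interval -0.08 to 0.77, adjusted p = 0.944). Probe set 1418669_at, from the same transcript record, had signals of 501, 587 and 489 in the wild-type arrays and 566, 463 and 839 in Vhl-deleted arrays, a change of 0.20 (SE 0.21). The arrays thus ranked differently on the perlecan probe sets: Vhl-deleted replicate 3 was the highest on one and the lowest of its group on the other. The log2 ratio of Agrn to Hspg2 went from 2.46 ± 0.20 (SD) in wild-type to 2.08 ± 0.43 in Vhl-deleted arrays, with overlap of the groups (exact permutation p = 0.2, adjusted 0.3).

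Bgn encodes biglycan, a small leucine-rich proteoglycan with chondroitin or dermatan sulfate chains that binds collagens and Toll-like receptors. Its 3 probe sets all separated the groups. On 1416405_at the signals were 6292, 6891 and 6266 in the wild-type arrays and 8070, 8668 and 9381 in Vhl-deleted arrays. On 1448323_a_at they were 5572, 5688 and 5553 against 7382, 7727 and 7741, and on 1437889_x_at 6057, 6248 and 6333 against 7876, 7728 and 8505. The lowest Vhl-deleted array was thus above the highest wild-type array each time, with gaps larger than the spread within the wild-type group. The change of the first was 0.42 (SE 0.10, 95% interval 0.19 to 0.66), with an unadjusted p of 0.00390 and an adjusted p of 0.633 by limma. On the others it was 0.44 (SE 0.10) and 0.37 (SE 0.10), and the adjusted p over all probe sets lay between 0.650 and 0.876. These probe sets read 1 gene in the same RNA, so they are repeat readings and not replicates. Of the 27 probe sets, 6 had groups without overlap, beside 9.96% of all 34945, and 3 of the 6 were those of Bgn.

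Dcn encodes decorin, a close relative of biglycan that binds fibrillar collagen and transforming growth factor beta. Its probe set 1449368_at lay near the filter, which corresponds to a signal of about 96.4, with 146, 171 and 70.8 in the wild-type arrays and 185, 166 and 134 in Vhl-deleted arrays. Wild-type replicate 3 stood apart as the lowest. The change of 0.32 (SE 0.29, 95% interval -0.36 to 1.01, adjusted p = 0.944) was 0.02 without that array. The other Dcn probe set had signals of 34.5 or less. The log2 ratio of Bgn to Dcn was 5.43 ± 0.49 in the wild-type arrays and 5.53 ± 0.31 (SD) in Vhl-deleted arrays (exact permutation p = 0.8, also after adjustment). Interstitial fibroblasts are a usual source of decorin, and 8 fibroblast and adventitial markers, 7 of whose 14 listed genes stand in another list too, had mean log2 levels of 10.55 to 10.58 in the wild-type arrays and 10.55 to 10.67 in Vhl-deleted arrays, with 4 positive and 4 negative changes. Of these, Cd34, also an endothelial marker, had a log2 change of 0.29 without overlap of the groups and Pdgfra one of -0.35.

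Sparc encodes osteonectin, a collagen-binding glycoprotein of the matrix that podocytes, among other cells, express. On 1416589_at the signals were 17599, 19040 and 22955 in the wild-type arrays and 23013, 23223 and 22891 in Vhl-deleted arrays. The Vhl-deleted arrays were close together (SD 168, against 2771 in wild-type), and wild-type replicate 3 was at their level. The change was 0.22 (SE 0.12, 95% interval -0.06 to 0.50, adjusted p = 0.944), and 0.33 without wild-type replicate 3. The second bright probe set (1448392_at) had a change of 0.14 (SE 0.13). The third (1458204_at) was below the filter, with signals between 7.25 and 104.8, and its change of 0.90 had a 95% interval from -0.23 to 2.03.

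Tinagl1 encodes a matricellular protein related to the tubulointerstitial nephritis antigen of tubular basement membranes. Its signals (1417109_at) were 2271, 3188 and 3835 in the wild-type arrays and 2842, 3033 and 3677 in Vhl-deleted arrays. The Vhl-deleted values all lay inside the wild-type range, and the change was 0.06 (SE 0.20, 95% interval -0.42 to 0.54, adjusted p = 0.967). Without wild-type replicate 1, the lowest array, it was -0.14.

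Fn1 encodes fibronectin, which cells assemble into fibrils through integrins. On 1426642_at the signals were 269, 246 and 215 in the wild-type arrays and 355, 273 and 279 in Vhl-deleted arrays. The groups did not overlap, but the lowest Vhl-deleted array exceeded the highest wild-type array by little, and the change was 0.28 (SE 0.16, 95% interval -0.10 to 0.66, adjusted p = 0.944). Without Vhl-deleted replicate 1, the highest array, it was 0.17. The other Fn1 probe set (1437218_at) was below the filter, between 1.00 and 69.7.

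Vcan encodes versican, a large chondroitin sulfate proteoglycan that binds hyaluronan. It had 8 probe sets, all below the filter, with signals between 0.554 and 58.3, so the gene was not tested in the comparison of genes. The highest mean in a group was 40.2 ± 8.67 (SD), on 1433044_at in Vhl-deleted arrays. On that probe set the signals were 22.5, 29.9 and 18.9 in the wild-type arrays and 43.0, 47.1 and 30.5 in Vhl-deleted arrays, without overlap, and the change was 0.39 (SE 0.22, adjusted p = 0.978 over all probe sets). The other 7 probe sets had changes between -0.06 and 0.41. Detection calls were not used here, so these signals cannot be told from background.

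**Figure D2:**
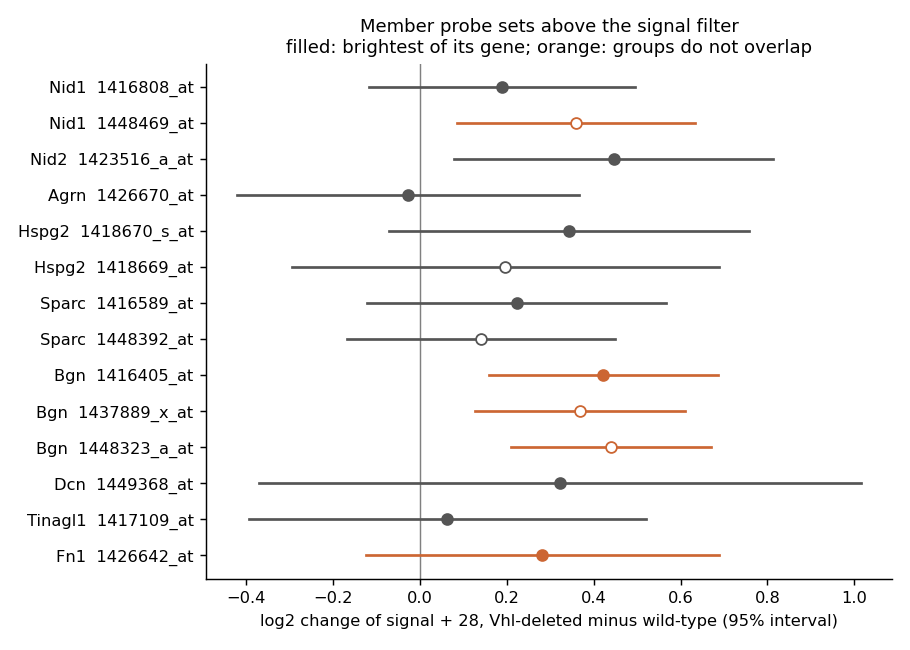
Log2 change of signal + 28, Vhl-deleted minus wild-type (horizontal axis), with its 95% interval from limma, for the 14 probe sets above the signal filter; filled points stand for their gene and orange marks groups without overlap. All 3 Bgn probe sets and 1448469_at of Nid1 have intervals above 0 and separate groups, and the interval of Agrn spans -0.42 to 0.37 in the fit over all probe sets.

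The arrays differed within the groups, and the extreme array of each group was counted for the 9 genes. The same count over all genes was not taken, so these counts are not read as a trait of the set. Wild-type replicate 3 was the highest wild-type array for 6 of the 9 genes (Nid1, Nid2, Agrn, Hspg2, Sparc and Tinagl1) and the lowest for the other 3 (Bgn, Dcn and Fn1). Vhl-deleted replicate 3 was the lowest of its group for 5 genes (Nid1, Nid2, Hspg2, Sparc and Dcn) and the highest for Agrn, Bgn and Tinagl1. These are the arrays with the lowest and the highest tubule marker level, but they were extremes for glomerular markers too. Wild-type replicate 3 had the highest wild-type level of podocyte (12.60), endothelial (12.11) and mesangial markers (11.47). Vhl-deleted replicate 3 had the lowest level of its group for podocyte (11.98) and endothelial markers (11.94) and the highest for mesangial ones (11.57). Which of these goes with the pattern was not tested. With the tubule marker mean as a covariate the changes were 0.57 for Nid2, 0.49 for Hspg2, 0.38 for Bgn, 0.26 for Nid1 and 0.12 for Dcn, and 0 of the 9 genes passed (lowest adjusted p = 0.211). Without Vhl-deleted replicate 3 the groups did not overlap in 6 genes (the background was 19.3% of all genes with 5 arrays), and without wild-type replicate 3 in 5 genes (19.9%). With both left out, it was 6 genes, beside 43.3% of all genes with 4 arrays. For Nid1, Nid2, Hspg2 and Sparc these were the highest wild-type and the lowest Vhl-deleted array. Leaving them out favoured separation of those genes, so these counts lend it no support.

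**Figure D3:**
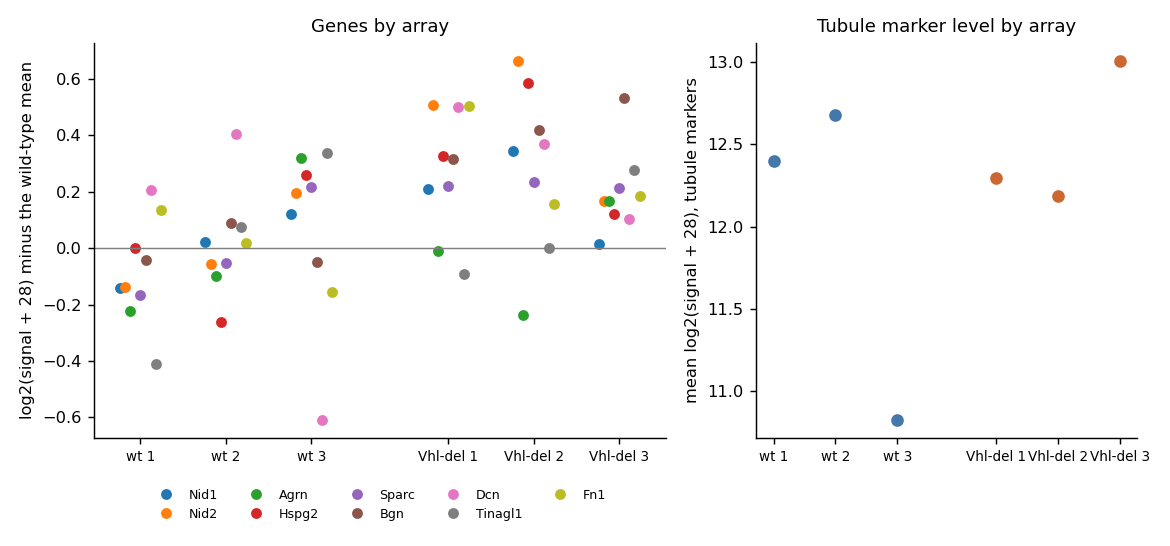
Left, log2(signal + 28) of each gene minus its wild-type mean (vertical axis) in the 6 arrays (horizontal axis; wt, wild-type; Vhl-del, Vhl-deleted), 1 colour per gene. Right, the mean log2 level of the 19 tubule markers in the same arrays, lowest in wild-type replicate 3 (10.83) and highest in Vhl-deleted replicate 3 (13.01).

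Markers of the cell types in the samples were compared over the same arrays, and their mean levels overlapped between the groups in each list but the immune one. Levels here are means of log2 values per array, and a value in brackets after a gene is its log2 change, Vhl-deleted minus wild-type. All 19 tubule markers had a positive change, from mean levels of 10.83 to 12.68 in wild-type to 12.19 to 13.01 in Vhl-deleted arrays (Fbp1 0.87, Kap 0.73). Of 17 podocyte markers 13 had a negative change, with mean levels of 12.22 to 12.60 and 11.98 to 12.27, and Lmx1b was at -0.53 and Cdkn1c at 0.48. The 11 mesangial and smooth muscle markers ranged from 11.10 to 11.47 and from 11.39 to 11.57. Their changes were positive in 9 and negative in 2, with a median of 0.17. Tagln (0.53) and Myl9 (0.40) had the lowest p by limma, while Acta2 was at 0.13, Des at -0.09 and Pdgfra at -0.35. The 15 endothelial markers ranged from 11.82 to 12.11 and from 11.94 to 12.01, with 9 positive and 6 negative changes and a median of 0.04 (Cd34 0.29, Kdr 0.28). Mean levels of 8 parietal epithelial markers were 8.86 to 10.09 and 9.76 to 10.25, with all 8 changes positive (Vcam1 0.57, Pax8 0.35). As for the tubule markers, their level was lowest in wild-type replicate 3 and highest in Vhl-deleted replicate 3. Mean levels of 10 immune cell markers were 8.78 to 9.31 and 9.44 to 9.90, without overlap, with 9 positive changes and 1 negative. By gene the markers differed: 6 of the 10 separated the groups (H2-Eb1 0.99, Cd74 1.02). The groups overlapped for Tyrobp (0.36), Cd68 (0.14) and Adgre1 (-0.13), among others. Markers of red blood cells were at 7.41 to 8.21 and 7.60 to 7.89 (Alas2 -0.40, Slc4a1 0.02). None of these markers passed the threshold, and their part in the matrix genes' changes was not tested. The tubule covariate rests largely on wild-type replicate 3 (10.83, against 12.19 to 13.01 in the other arrays). It cannot tell tubule content from other traits of that array.

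The partners of these genes were described from lists that were written with earlier results of the series known, and 0 genes of any of them passed over all genes. Among 13 collagen IV and laminin genes, 9 lay above 0, and the median was 0.17. The laminin gene Lamb1 was at 0.57 (SE 0.11, limma adjusted p = 0.343) and Col4a6 at 0.82 (limma adjusted p = 0.720). Col4a6 was dim, with signals of 105, 75.2 and 73.1 in the wild-type arrays and 160, 140 and 216 in Vhl-deleted arrays. Its mean wild-type signal of 84.4 was below the filter of about 96.4. It was thus kept for testing only through the Vhl-deleted arrays. Other basement membrane proteins had a median of -0.05 over 13 genes, with the netrin gene Ntn4 at -0.45 and Frem2 at 0.33. The 19 enzymes that make and modify heparan sulfate chains, which agrin and perlecan carry, had a median of -0.05 and 13 negative changes. The xylosyltransferase gene Xylt2, whose enzyme starts the chains, was at 0.71 (limma adjusted p = 0.916) and the sulfotransferase gene Hs2st1 at -0.26. Xylt2 was dim, with signals of 49.7, 65.8 and 101 in the wild-type arrays and 160, 124 and 116 in Vhl-deleted arrays. Its mean wild-type signal of 72.2 was below the filter of about 96.4. It was thus kept for testing only through the Vhl-deleted arrays. The 13 chondroitin and dermatan sulfate enzymes had a median of 0.02, with Chst7 at 0.63 and Chsy1 at 0.24.

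Cell-surface heparan sulfate proteoglycans had a median of 0.08 over 9 genes. Syndecan 2 (Sdc2) was at -0.46 (SE 0.11, adjusted p = 0.634), with signals of 1985, 1730 and 2126 in the wild-type arrays and 1476, 1346 and 1395 in Vhl-deleted arrays, all lower, and the glypican gene Gpc3 was at 0.26. Of the other small leucine-rich proteoglycans and the hyaluronan-binding group, 5 of 16 genes could be tested, with a median of 0.08 (Ogn 0.28, Srgn 0.16). The 8 matricellular proteins had a median of 0.20, with 7 positive changes (Thbs1 0.35, Fstl1 0.25).

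Matrix receptors had a median of 0.16 over 19 genes. The collagen-binding integrin gene Itga2 was at 0.83 (adjusted p = 0.868) and the hyaluronan receptor gene Cd44 at 0.35, while Dag1, the dystroglycan gene and a receptor for agrin and perlecan, was at -0.01 and was chosen after its value was seen. Matrix proteases and inhibitors had a median of 0.12, with 11 of 13 positive; the gelatinase gene Mmp2 was at 0.44 and its activator gene Mmp14 at 0.33. Interstitial fibrillar matrix genes had a median of 0.11 over 9 genes (Col6a3 0.34, Col5a2 0.21). The medians of these lists lay between -0.05 and 0.20, that of the nidogens and proteoglycans at 0.28, and that of all genes at 0.00. The marker lists of parietal (0.31), tubule (0.57) and immune cells (0.61) had higher medians. Vhl-deleted arrays all lay above wild-type in 4 of 13 proteases and inhibitors and 4 of 13 collagen IV and laminin genes, dim Col4a6 included. In interstitial matrix genes this held for 3 of 9, against 2 of 9 in the set and 5.04% of all genes.

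**Figure D4:**
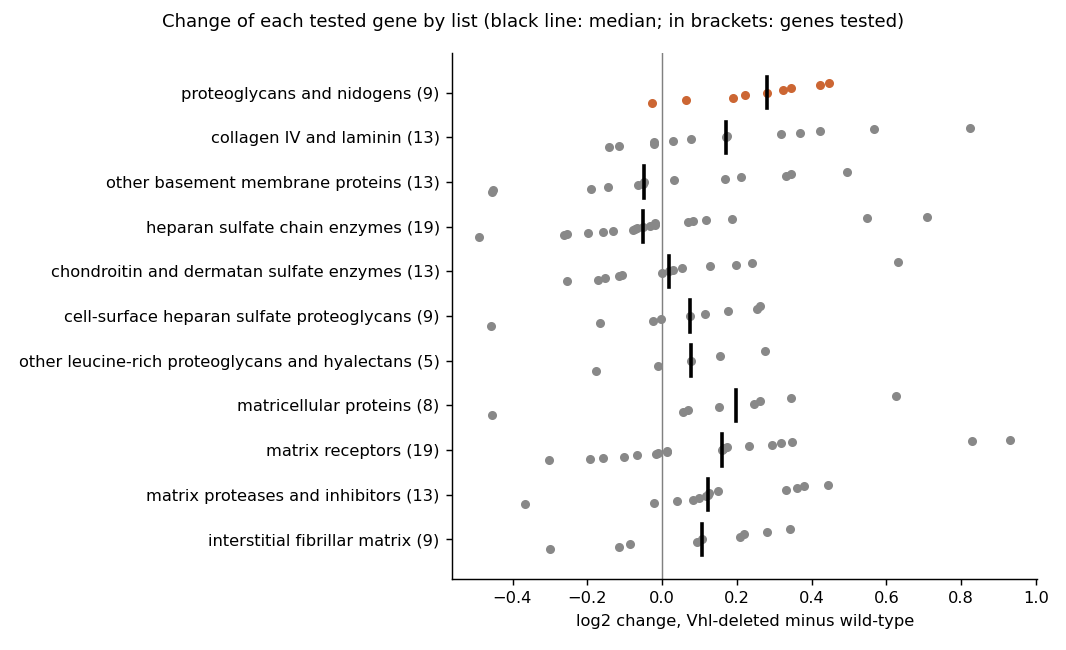
Log2 change, Vhl-deleted minus wild-type (horizontal axis), of each tested gene (points) in 11 lists of matrix genes (rows, with the number tested); black lines are medians. The 9 nidogen and proteoglycan genes (orange) run from -0.03 (Agrn) to 0.45, and each of the 11 lists has changes on both sides of 0.

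Promoter windows were read for 7 of the 10 genes (9 windows, some genes having more than 1 start) from RefSeq on GRCm38.p6, each with 250 bases before and 50 bases after the transcription start. The letters ACGTG and GCGTG, the core of the element that HIF binds, were searched on both strands, where the reverse strand reads CACGT and CACGC. A match stood in 4 of 9 windows (Agrn, Bgn, Hspg2 and Tinagl1), beside 43.8% of all 32851 windows of that length. Windows of 3 genes are shown, Bgn for its probe sets that all separated the groups, Hspg2 for its repeated match and Nid1 for having none, with matches in capitals. That of Bgn is chrX:73483351-73483650 (plus strand), with GCGTG starting 199 bases before the start. That of Hspg2 is chr4:137468553-137468852 (plus strand), with GCGTG at 217 and at 80 bases before it, and that of Nid1 is chr13:13437352-13437651 (plus strand).
Bgn: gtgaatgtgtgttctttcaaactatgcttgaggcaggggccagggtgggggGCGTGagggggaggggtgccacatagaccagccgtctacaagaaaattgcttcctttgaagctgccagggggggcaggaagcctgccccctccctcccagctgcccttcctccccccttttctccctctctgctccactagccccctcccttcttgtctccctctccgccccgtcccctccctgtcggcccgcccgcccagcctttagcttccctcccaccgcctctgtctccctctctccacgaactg
Hspg2: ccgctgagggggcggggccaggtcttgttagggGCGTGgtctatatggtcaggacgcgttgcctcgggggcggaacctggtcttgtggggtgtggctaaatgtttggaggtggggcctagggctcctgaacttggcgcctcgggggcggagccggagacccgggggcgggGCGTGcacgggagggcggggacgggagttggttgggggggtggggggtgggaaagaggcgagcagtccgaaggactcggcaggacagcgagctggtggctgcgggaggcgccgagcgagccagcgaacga
Nid1: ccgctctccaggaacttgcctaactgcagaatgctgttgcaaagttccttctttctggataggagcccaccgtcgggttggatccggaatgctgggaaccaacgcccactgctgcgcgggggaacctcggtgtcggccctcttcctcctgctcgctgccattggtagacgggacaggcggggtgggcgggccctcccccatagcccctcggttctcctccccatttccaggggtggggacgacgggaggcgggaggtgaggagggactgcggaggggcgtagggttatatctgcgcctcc
Tested genes with a match had changes of 0.42 (Bgn), 0.34 (Hspg2), 0.06 (Tinagl1) and -0.03 (Agrn, with 2 matches in a single window and none in the other). Those without a match were at 0.19 (Nid1) and 0.22 (Sparc). Whether matches bear on the changes was not tested. A match of 5 letters is a description of the window and not a binding site.

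**Figure D5:**
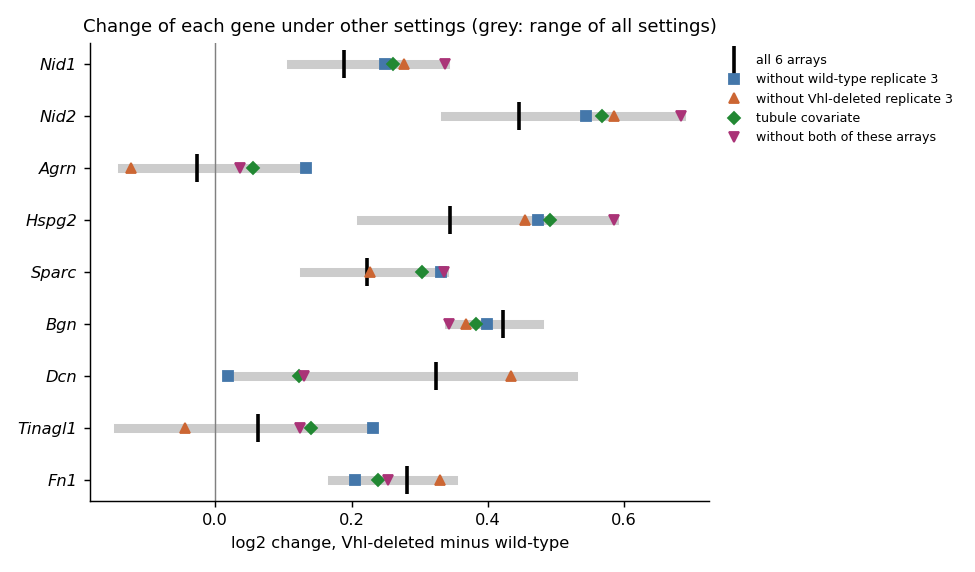
Log2 change of each tested gene (rows), Vhl-deleted minus wild-type (horizontal axis), with all 6 arrays (black bar), without replicate 3 of either or both groups, and with the tubule marker mean as a covariate; the grey band spans all settings tried. Bgn keeps to 0.34 to 0.48 and Nid2 to 0.34 to 0.68, while Agrn and Tinagl1 lie on both sides of 0.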

How the data were processed

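The authors deposited intensities: linear MAS5 signals, 1 for each probe set on each array (MAS5 is named in the submitters' processing notes, with no version). The 2% trimmed mean was 500 in each array, from the values. The 6 arrays are biological replicates per the labels, and their number limits the precision. Symbols came from the array annotation, updated by Entrez number (34741 of 34945 probe sets with 1 symbol matched).

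Values were taken as log2(signal + 28), 28 being the 25th percentile; this understates changes of dim genes. Probe sets in the upper 50% by mean were kept, the brightest for each gene, and fitted with limma 3.58.1 in R 4.3.3 (lmFit, eBayes with intensity trend; threshold 0.05 on Benjamini-Hochberg adjusted p). Intervals are unadjusted. A second fit took all 34945 probe sets. The fit was tested on simulated data. Named were all 10 genes, the 2 genes of lowest p per list (0 passed), Vhl and Egln3 as label checks, Nphs1, Pecam1, Pdgfrb and Umod as tissue checks, and the gene with the nearest profile for each of the 9 tested genes. Acta2, Des, Tyrobp, Cd68, Adgre1 and Dag1 were named outside this rule, with their values known. Genes and lists were chosen with earlier results of these data known. Alternatives changed scaling, pseudocount, filter, probe set, variance model, array weights, block, tubule covariate and arrays.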

Additional observations from a re-analysis of the deposited data

How the results depend on the processing

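No setting tried brought any of the 9 genes past the threshold, and the lowest adjusted p by limma was 0.0737. That was Nid2 without replicate 3 of both groups, its highest wild-type and lowest Vhl-deleted arrays. The 27 probe sets were fitted in 11 of the settings, and 0 passed in each; array weights, robust variance, no intensity trend, the tubule covariate, the replicate block and leaving out replicate 3 of both groups were not run on them. The median change of the 9 genes lay between 0.21 and 0.34, and Bgn, Nid1, Nid2, Hspg2, Sparc, Fn1 and Dcn kept a positive change in every setting that tested them. Agrn turned to 0.073 with array weights and 0.055 with the tubule covariate, ran from -0.14 to 0.13 leaving out 1 array (0.13 and 0.078 when wild-type replicate 3 or Vhl-deleted replicate 2 was dropped), and was at 0.036 without replicate 3 of both groups. Tinagl1 turned to -0.0011 with median scaling and ran from -0.14 to 0.23 leaving out 1 array (-0.14 and -0.045 when wild-type replicate 1 or Vhl-deleted replicate 3 was dropped). Leaving out 1 array moved the Bgn to Dcn ratio between -0.067 and 0.38 (below 0 when replicate 1 or 2 of the wild-type group or replicate 3 of the Vhl-deleted group was dropped), and the Nid1 to Nid2 ratio was at -0.087 with the other Nid1 probe set; the cause was not tested. Genes without overlap were 1 of 7 tested in the brightest 30% of probe sets (10.9% of all genes), 4 with the mean of probe sets (10.5%), 2 to 6 leaving out 1 array (17% to 20.7%) and 6 leaving out replicate 3 of both groups (43.3%), beside 10.7% of all genes in the main comparison. Over all genes, 9 passed in the main comparison, 33 with array weights, 35 with the covariate, 39 without replicate 3 of both groups and 1 to 13 leaving out 1 array (highest when wild-type replicate 3 was dropped, lowest for Vhl-deleted replicate 1). Median scaling moved the share of genes with a positive change from 50.9% to 38.1% and the median of all genes to -0.06. Replicate numbers did not pair the arrays (correlations of same-numbered deviations of -0.020, -0.410 and -0.513), and with the replicate block 1 gene passed over all genes.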

Other observations

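For each tested gene, the gene outside the set with the most similar profile was found by the root mean square (RMS) distance between log2 values centred on their mean over the 6 arrays. The nearest to Nid2 was Vegfa, the endothelial growth factor gene of podocytes, with a distance of 0.076 beside Nid2's own RMS deviation of 0.29 and a change of 0.42. The nearest to Sparc was Pdlim7 (0.027), to Nid1 Akna (0.040), to Agrn Dalrd3 (0.043), to Fn1 Nfkbie (0.044) and to Hspg2 Trim30a (0.045). For Bgn it was Tnfaip8l1 (0.057), for Tinagl1 Ushbp1 (0.070) and for Dcn the claudin gene Cldn1 (0.12), a parietal epithelial marker. With 6 arrays and 11159 genes a close profile is found for most genes, and none of these neighbours passed the threshold (adjusted p between 0.851 and 0.997).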
